A study of Mus musculus with 32 samples.

Results

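The interferon-induced GTPases described here are 10 mouse genes, chosen by name from 21829 mouse genes in the deposited table: the guanylate-binding protein genes Gbp2, Gbp3 and Gbp7, the immunity-related GTPase (IRG) genes Igtp, Irgm1, Irgm2, Iigp1 and Tgtp2, and the Mx genes Mx1 and Mx2. All 10 had a row. They were measured in polyadenylated RNA of EL08-1D2, a mesenchymal stromal cell line of the mouse, in 16 libraries from cells grown without and 16 from cells grown with azacitidine, a cytidine analogue that enters DNA, traps DNA methyltransferases and so lowers DNA methylation. No other treatment is named for either group, and dose, duration and genotype are not given in the labels used here. All libraries come from 1 line, and since no label ties a library to its own culture, p-values measure the spread between these libraries, which may be technical. In such bulk RNA, fewer cells of a type and less RNA per cell cannot be told apart. Values are counts of unique molecular identifiers (UMIs, which count each cDNA molecule once), scaled to library size as CPM, the usual unit of sequencing counts relative to depth.

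Interferons bind receptors that act through JAK kinases, STAT proteins and interferon regulatory factors (IRFs) on short elements in front of their target genes. Among the most strongly interferon-responsive genes of mouse cells are large GTPases. Guanylate-binding proteins and IRG proteins gather on the membranes of vacuoles that hold bacteria or protozoa and help to break them, the IRGM proteins hold the other IRG proteins in check on the cell's own membranes, and Mx proteins, relatives of dynamin, bind viral nucleoproteins.

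Libraries held between 818619 and 3210801 UMIs without and between 1226861 and 5039721 with azacitidine. Libraries fell into sets of 4 consecutive replicate numbers (1 to 4, 5 to 8, 9 to 12 and 13 to 16) that resembled each other, which the labels do not explain. In an earlier look at these data 5 libraries differed most from the rest, untreated numbers 1 and 2 and treated numbers 1, 2 and 4. The main results below are therefore also given by set and without those libraries. Of 10 stromal markers 9 were abundant enough to be tested, and Thy1 had 0 UMIs without and 26 with azacitidine. Of these 9, 3 collagen genes fell (background 2%), Col3a1 by 0.65, Col1a2 by 0.39 and Col1a1 by 0.37 on the log2 scale (edgeR, adjusted p = 6.2e-09, 0.0010 and 0.0014), and Vcam1 rose by 0.20 (adjusted p = 0.014, background 3.65%). None of these 4 was called with spike-in scaling (edgeR, adjusted p from 0.14 to 0.79), chosen for them after the data were seen. The summed level of the 10 stromal markers ran from 11357 to 14763 CPM without and from 8490.5 to 12930 CPM with azacitidine. The 4 endothelial markers with a row (of 6 listed) summed to at most 1.05 CPM without and 2.97 CPM with the drug, with Emcn at 1 and 18 UMIs and called (edgeR without a filter on low counts, adjusted p = 0.010). Leukocyte markers were scarce: the pan-leukocyte gene Ptprc had 1 UMI without and 4 with azacitidine, the macrophage gene Adgre1 0 and 1, and the B-cell gene Cd79a 0 and 8. The summed level of the 9 leukocyte markers with a row (of 14 listed) ran from 8.94 to 23.8 CPM without and from 14.7 to 36.5 CPM with azacitidine. Cd68, a lysosomal gene used as a macrophage marker, rose by 0.99 (SE 0.16) on the log2 scale (edgeR, adjusted p = 3.0e-05), and Fcer1g had 4 UMIs without and 65 with azacitidine (edgeR without a filter on low counts, adjusted p = 2.5e-05). The part of these markers' cells in the results below was not tested.

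The genes lie in groups of relatives. In mm10 Gbp7 (chromosome 3, 142530342 to 142550149), Gbp3 (142560026 to 142573209) and Gbp2 (142620602 to 142638008) follow each other on the plus strand. On chromosome 11 Irgm1 (48861968 to 48871683, minus strand) and Tgtp2 (49057194 to 49064206, minus strand) form one group. Igtp (58199556 to 58207591) and Irgm2 (58199618 to 58222782), both on the plus strand, form another, and their gene models overlap over 162 exonic bases. Iigp1 lies on chromosome 18 (60376027 to 60392634), and Mx1 (97447035 to 97462907) and Mx2 (97535308 to 97560900) lie on chromosome 16. GENCODE lists Mx2 as a polymorphic pseudogene and the others as protein coding.

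Likeness among relatives limits how far reads can be assigned. Of all stretches of 50 bases in Tgtp2 transcripts 86.6% also occur in transcripts of another gene, mostly its neighbour Tgtp1, so Tgtp2 values may hold molecules of both. The share was 12.7% for Gbp7, 11.8% for Igtp, 7.77% for Irgm2 and at most 4.38% for the other members. How reads that fit more than 1 gene were counted is not given in the sources used here.

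Stretches before the starts of 5 of these genes are given. They were chosen because their matches to the cores of interferon elements lie ahead of any GENCODE exon of the gene in the bases searched. RefSeq start sites of GRCm38.p6 were at hand for 7 of the 10 members, all but Iigp1, Mx1 and Mx2. The core of the interferon-stimulated response element, which type I interferon acts through, was searched as GAAA, any 2 bases, GAAA, and the core of the gamma-activated site, which interferon gamma acts through, as TTC, any 3 bases, GAA, on both strands of the 250 bases before each start. The response element core was found in 7 of 7 members, in 936 of all 27025 genes and in 2.98% of all 32851 windows of this length. Gbp3 has a further RefSeq start, and neither core was found before that one. The gamma-activated core was found in 4 of 7 members, Gbp7, Igtp, Irgm2 and Tgtp2, in 2197 of all 27025 genes and in 7.02% of all windows. In the lines that follow each stretch is 120 bases long, reads 5′ to 3′ on the strand of the gene, and has the motif matches in capitals. The stretches of Igtp, Irgm2, Tgtp2 and Gbp7 end at the RefSeq start, and that of Gbp3 ends 18 bases before it, where the first GENCODE exon begins. The GENCODE model of Irgm2 begins farther upstream, at 58199618, outside the bases searched.
Igtp, chr11:58199436-58199555, plus strand: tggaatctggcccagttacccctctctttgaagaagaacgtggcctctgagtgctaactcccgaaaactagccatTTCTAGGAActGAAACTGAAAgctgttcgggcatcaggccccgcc
Irgm2, chr11:58214857-58214976, plus strand: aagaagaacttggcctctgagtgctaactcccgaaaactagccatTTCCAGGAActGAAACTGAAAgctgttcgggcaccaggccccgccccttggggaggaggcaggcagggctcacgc
Tgtp2, chr11:49064213-49064332, minus strand: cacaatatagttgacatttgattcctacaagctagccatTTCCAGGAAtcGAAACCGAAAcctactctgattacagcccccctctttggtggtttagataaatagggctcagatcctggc
Gbp7, chr3:142530216-142530335, plus strand: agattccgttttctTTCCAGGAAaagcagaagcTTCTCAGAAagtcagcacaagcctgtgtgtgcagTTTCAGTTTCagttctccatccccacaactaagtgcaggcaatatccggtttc
Gbp3, chr3:142559906-142560025, plus strand: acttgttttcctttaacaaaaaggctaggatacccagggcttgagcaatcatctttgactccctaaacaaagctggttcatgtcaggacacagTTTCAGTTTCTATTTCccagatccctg

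In Igtp, Irgm2 and Tgtp2 the gamma-activated core stood directly before the response element core with 2 bases between them. That order and spacing (looked for after the matches were seen, on both strands) occurred in 5 of all 32851 windows, and those belonged to Igtp, Irgm2, Tgtp2, Tgtp1 and Gm12185, all of them IRG genes of chromosome 11 that are alike in sequence. Gbp7 and Gbp3 carried the response element core in the reverse orientation, and in Gbp3 2 matches overlapped. Irgm1 also had 2 overlapping matches, GAAATAGAAA from 30 to 21 and GAAACCGAAA from 24 to 15 bases before its RefSeq start, and Gbp2 had TTTCACTTTC from 59 to 50 bases before its RefSeq start. In Irgm1 and Gbp2 a GENCODE exon of the gene covers searched bases ahead of these matches, so their stretches are not printed. A match describes the letters and not the binding of a factor, which was not measured.

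**Figure D1:**
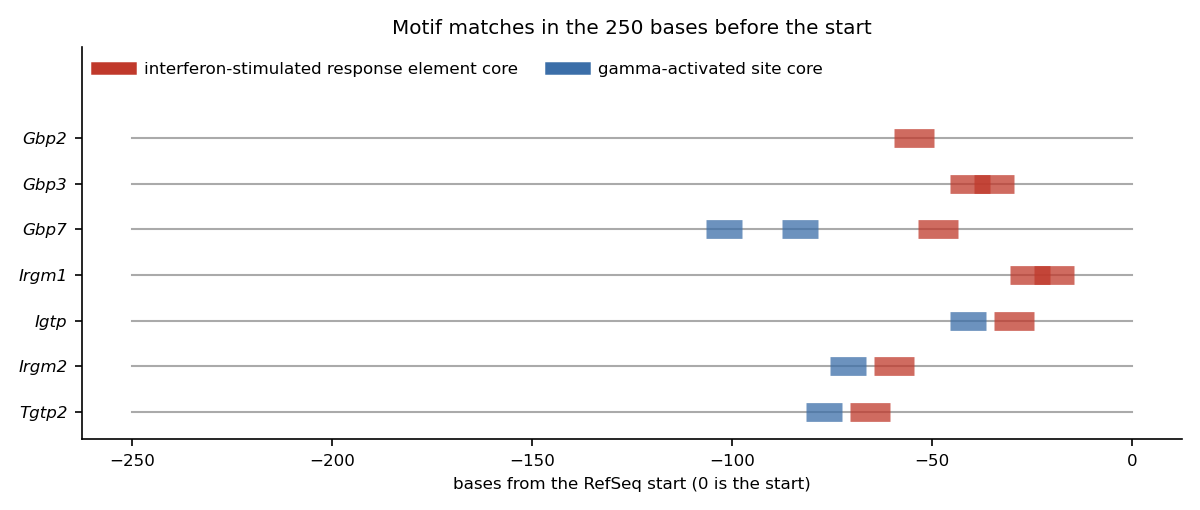
Positions of motif matches in the 250 bases before the RefSeq start of 7 members (for Gbp3 its upstream start), with the distance from the start in bases on the x axis. All response element cores lie within 70 bases of the start, and in Igtp, Irgm2 and Tgtp2 a gamma-activated core lies beside them. In Irgm1 and Gbp2 a GENCODE exon of the gene covers some of the 250 bases ahead of the matches.

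The comparison of the groups asks how azacitidine changes the RNA of the stromal cells. Of the 10 GTPase genes 8 were abundant enough to be tested, and all 8 of these rose, by 1.90-fold (Igtp) to 4.00-fold (Tgtp2), with a median log2 fold change of 1.15 against 0.00075 over all tested genes (edgeR quasi-likelihood test on UMI counts, Benjamini-Hochberg adjusted p under 0.05). Over all 9344 tested genes 3.65% rose, and 5.65% were called in either direction. At a fold of at least 2 the background was 0.845%, and 6 of the 8 genes reached it, all but Igtp and Gbp7. The tested members passed a filter on low counts that looks at the size of counts in either group, so their number is not a count over all members. Gbp7 and Iigp1 had the fewest UMIs of the tested members. Their medians were 4.53 and 4.45 CPM without and 8.71 and 9.80 CPM with azacitidine, and their higher counts with the drug helped them to pass. For them a rise among the tested genes is therefore partly built in.

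Among the guanylate-binding proteins Gbp2, which attacks vacuoles and bacteria in the cytosol, had 15.5, 22.9 and 36.0 CPM (lowest, median and highest library) without and 28.2, 37.6 and 108 CPM with azacitidine. The groups overlapped, with 10 of 16 libraries with the drug above every library without it. Its log2 fold change was 1.08 (SE 0.20, edgeR adjusted p = 0.00035). Gbp3 ran from 2.99 over 10.0 to 21.2 CPM without and from 10.5 over 24.6 to 56.3 CPM with azacitidine. Here 9 of 16 treated libraries lay above all untreated ones, and the log2 fold change was 1.48 (SE 0.24, edgeR adjusted p = 4.1e-05). Gbp7, the least abundant of the 3 in these libraries by UMIs, had 1.74, 4.53 and 8.99 CPM without and 3.61, 8.71 and 22.5 CPM with the drug. It rose by 0.99 (SE 0.23, edgeR adjusted p = 0.0045), and 8 of 16 treated libraries were above the untreated range.

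Of the regulatory IRG proteins, which protect the cell's own membranes, Irgm1 had the most UMIs of the members (939 without and 3451 with azacitidine). Its level was 23.3, 31.95 and 67.6 CPM without and 42.2, 73.4 and 148 CPM with the drug, so that 11 of 16 treated libraries exceeded the untreated range. The log2 fold change was 1.22 (SE 0.18, edgeR adjusted p = 8.9e-06). Igtp, also known as Irgm3, ran from 11.1 over 18.3 to 32.03 CPM without and from 20.8 over 35.0 to 58.0 CPM with azacitidine. It rose by 0.92 (SE 0.15, edgeR adjusted p = 6.1e-05), with 10 of 16 treated libraries above all untreated ones. Irgm2 had 3.48, 9.75 and 20.5 CPM without and 9.38, 18.7 and 39.5 CPM with the drug. Its log2 fold change was 1.08 (SE 0.19, edgeR adjusted p = 0.00023), and 6 of 16 treated libraries passed the untreated range.

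The effector IRG proteins load onto parasite vacuoles. Tgtp2, also called Irgb6, had 1.19, 8.38 and 16.0 CPM without and 14.9, 26.7 and 82.0 CPM with azacitidine. Its groups overlapped least among the members by this count, with 13 of 16 treated libraries above the untreated range, and its log2 fold change was 2.00 (SE 0.28, edgeR adjusted p = 4.5e-06). Iigp1, also called Irga6, ran from 1.46 over 4.45 to 11.6 CPM without and from 3.13 over 9.80 to 21.5 CPM with the drug. It rose by 1.31 (SE 0.25, edgeR adjusted p = 0.00046), and 6 of 16 treated libraries lay above all untreated ones. No member separated the groups fully, which 0.278% of all tested genes did.

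The Mx genes were too low for the filter. Mx1, whose protein acts against influenza-type viruses in the nucleus, had 56 UMIs in 15 of 16 libraries without and 220 in 16 of 16 with azacitidine, or 0, 2.02 and 4.29 CPM against 0.782, 2.66 and 17.3 CPM. Mx2, whose protein acts in the cytoplasm, had 30 UMIs in 8 of 16 libraries without and 157 in 16 of 16 with azacitidine, or 0, 0.526 and 3.43 CPM against 0.667, 2.52 and 9.70 CPM. Without the filter both were called, Mx1 with a log2 fold change of 1.32 (SE 0.38, edgeR adjusted p = 0.043) and Mx2 with 1.73 (SE 0.42, adjusted p = 0.0081). In that fit 3.29% of 21822 genes rose, and all 10 members did. Both Mx genes lost their call when numbers 1 to 4 were left out (edgeR, adjusted p = 0.42 and 0.083) or after thinning every library to the smallest (0.22 and 0.23). Mx1 was not called by limma-voom either (adjusted p = 0.14). Of 17 alternatives Mx1 was not called in 7 and Mx2 in 3.

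**Figure D2:**
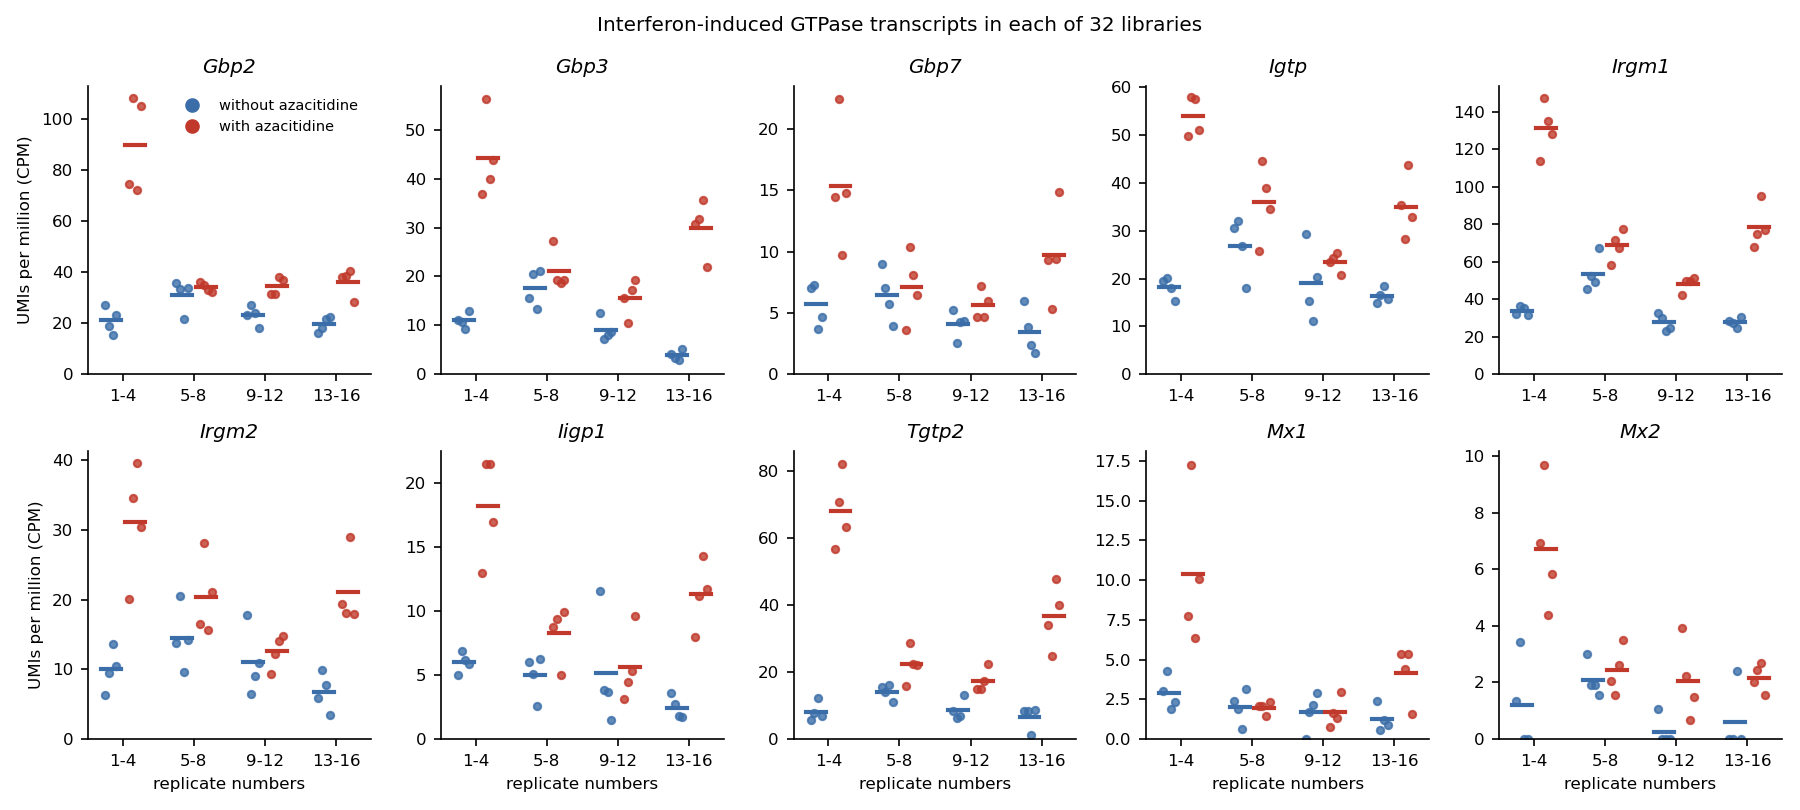
CPM of each of the 10 genes (linear axes from 0) in the 16 libraries without (blue) and the 16 with (red) azacitidine, arranged by sets of 4 replicate numbers. Points are libraries and bars are means of 4 libraries. The mean of treated numbers 1 to 4 is the highest of the 8 means for each gene, and Irgm1 reaches 148 CPM there.

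The rise was uneven between the sets. The summed level of the 10 members was 118 ± 5.0 CPM (SD, n = 4) without and 470 ± 62 CPM with azacitidine in numbers 1 to 4, and 174 ± 18 and 222 ± 23 CPM in numbers 5 to 8. It was 110 ± 22 and 167 ± 16 CPM in numbers 9 to 12, and 88.9 ± 3.1 and 265 ± 39 CPM in numbers 13 to 16. In each set the lowest treated sum lay above the highest untreated one, although only by a small margin in numbers 5 to 8 (196 against 189 CPM) and 9 to 12 (149 against 142 CPM).

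Gene by gene, edgeR called all 8 tested members as increased in numbers 1 to 4 (background 4.68%), 0 in numbers 5 to 8 (2.64%), 1 in numbers 9 to 12 (0.920%) and 7 in numbers 13 to 16 (1.90%). In numbers 5 to 8 the lowest adjusted p was that of Irgm1 (edgeR, 0.084). Igtp, Irgm1 and Tgtp2, 3 of the 8, had an unadjusted p under 0.05 there, and all 8 estimates were above 0, from 0.12 (Gbp2) to 0.64 (Tgtp2) on the log2 scale. Without the filter on low counts Tgtp2 was called there (edgeR, adjusted p = 0.043). The gene called in numbers 9 to 12 was Irgm1, which rose by 0.82 (SE 0.15, edgeR adjusted p = 0.00048). The gene not called in numbers 13 to 16 was Gbp7, at 1.34 (SE 0.39, edgeR adjusted p = 0.052), and it was called there without the filter (adjusted p = 0.012). In numbers 1 to 4 the 4 libraries with the drug lay above the 4 without it for each of the 10 genes, which 5.66% of all tested genes showed. In numbers 5 to 8 the groups overlapped for each of the 10 genes (background of no overlap 5.90%). They did not overlap for Gbp2, Irgm1 and Tgtp2 in numbers 9 to 12 (3.52%), nor for 7 genes, all but Gbp7, Mx1 and Mx2, in numbers 13 to 16 (4.6%).

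A test of the difference itself found that the effect varied between the sets for 5 of the 8 tested members, against 3.02% of all genes (edgeR interaction of set and azacitidine). These were Irgm1 (adjusted p = 1.6e-07), Gbp3 (7.9e-07), Gbp2 (1.0e-06), Tgtp2 (5.0e-05) and Igtp (0.011) in the edgeR fit. Irgm2 (adjusted p = 0.066), Iigp1 (0.16) and Gbp7 (0.33) did not pass. Without the filter on low counts 7 of the 10 members passed, against 3.15% of all genes, with Irgm2 (edgeR, adjusted p = 0.00026) and Iigp1 (0.039) added and Gbp7 at 0.22. Without numbers 1 to 4 the difference remained for Gbp3, Irgm1 and Tgtp2 of the 6 members that could then be tested (edgeR, adjusted p = 1.8e-06, 0.00024 and 0.011), and not for Gbp2 (0.10), Igtp (0.43) or Irgm2 (0.16).

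The order of the sets was not the same for each gene. Gbp2 rose by 2.07 (SE 0.16) in numbers 1 to 4 and by 0.93 (SE 0.19) in numbers 13 to 16. Gbp3, its neighbour on chromosome 3, rose by 2.03 (SE 0.18) and by 2.99 (SE 0.26). In numbers 13 to 16 Gbp3 stood at 3.92 ± 1.00 CPM without azacitidine, lower than the 9.15 to 17.7 CPM of the other sets, and at 30.0 ± 5.8 CPM with it. Tgtp2 rose by 3.08 (SE 0.24) and 2.49 (SE 0.29), and Irgm1 by 1.94 (SE 0.12) and 1.52 (SE 0.14) in the same sets.

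**Figure D3:**
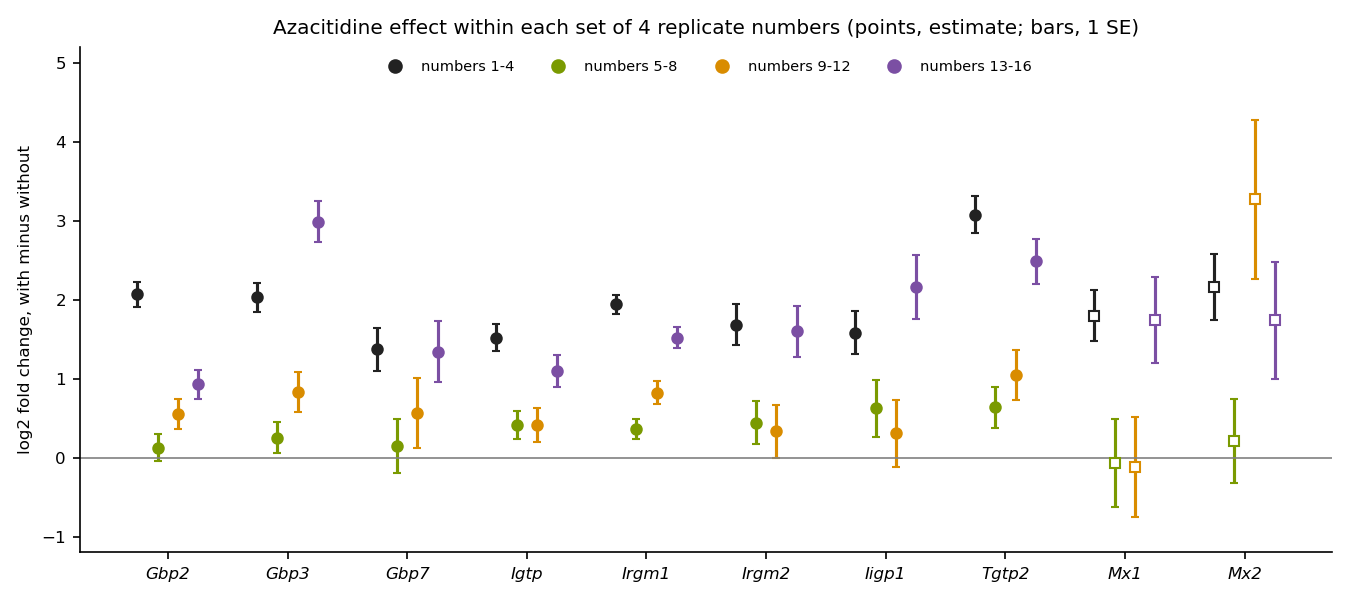
Log2 fold change of each gene within each set of 4 against 4 libraries (y axis), with bars of 1 SE from edgeR. Filled circles come from the fit with and open squares (Mx1, Mx2) from the fit without the filter on low counts. Numbers 5 to 8 lie nearest 0 for Gbp2 and Gbp3, and Gbp3 is highest in numbers 13 to 16.

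Both groups contributed to the differences between the sets. Without azacitidine 3 of the 8 members differed among the sets, Irgm1 (edgeR, adjusted p = 4.9e-06), Gbp3 (9.7e-06) and Igtp (0.045), against 13.9% of all genes. Without the filter on low counts Tgtp2 (edgeR, adjusted p = 0.0025), Gbp2 (0.018), Irgm2 (0.027) and Mx2 (0.043) passed as well. Gbp7 (0.32), Iigp1 (0.23) and Mx1 (0.61) did not pass in that fit. Irgm1 was at 53.7 ± 9.7 CPM in numbers 5 to 8 and at 33.9 ± 2.4, 27.7 ± 4.4 and 27.8 ± 2.5 CPM in the other sets. With azacitidine all 8 differed among the sets, against 49.6% of all genes. Irgm1 was at 131 ± 14 CPM in numbers 1 to 4, 68.7 ± 8.0 in 5 to 8, 48.3 ± 4.1 in 9 to 12 and 78.8 ± 11.6 in 13 to 16.

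Since libraries of a set resemble each other, the sets themselves may be the proper replicates. With the counts of each set and group summed, 4 sums against 4, edgeR called 0 of the 10 members (adjusted p from 0.13 for Tgtp2 to 0.83 for Mx1), with 9 of them at an unadjusted p under 0.05, all but Mx1. The log2 fold changes in these sums were between 0.91 and 1.96. In these sums 0.855% of 12281 genes rose. With a term for the set added, 4 of the 10 were called, namely Gbp7, Igtp, Iigp1 and Mx2, where 2.56% of all genes rose, and Irgm1 (edgeR, adjusted p = 0.25), Tgtp2 (0.26), Gbp3 (0.35), Gbp2 (0.41), Irgm2 (0.088) and Mx1 (0.10) were not. Without numbers 1 to 4 all 6 tested members were called (background 3.78%), with smaller log2 fold changes, such as 0.51 for Gbp2, 0.87 for Irgm1 and 1.39 for Tgtp2. Gbp7 lost its call once numbers 13 to 16 were left out (edgeR, adjusted p = 0.063). Without the 5 libraries that stood apart the 7 tested members were called (background 3.96%).

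Relatives of these genes were mostly too low for the filter. Ifi47, the IRG gene next to Tgtp2 and also called Irgd, was at 4.94 ± 2.27 CPM (SD, n = 16) without and 14.1 ± 8.6 CPM with azacitidine. It rose by 1.64 on the log2 scale (SE 0.27, edgeR adjusted p = 6.7e-05). Of the 13 other IRG and giant GTPase genes with a row 6 rose and 0 fell without the filter, where 3.29% of all genes rose. Tgtp1, the near copy of Tgtp2, had 78 UMIs without and 424 with azacitidine, Gm4951 30 and 291, Gm12250 22 and 106 and the giant GTPase gene Gvin1 39 and 122. Irgq, a relative without interferon inducibility, had 67 and 93 UMIs, a log2 fold change of -0.011 in that fit (edgeR, adjusted p = 0.99). Of the 5 other guanylate-binding protein genes 1 rose without the filter, Gbp4, with 58 and 186 UMIs (edgeR, adjusted p = 0.0015). Gbp9 was tested and not called, at 0.29 (SE 0.21, edgeR adjusted p = 0.53). Gbp8, Gbp11 and Gbp2b had 49, 35 and 5 UMIs without and 105, 73 and 23 with the drug, and were not called.

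The constitutive GTPases of the same superfamily gave no call over all libraries. Of 8 tested genes of dynamins, mitofusins, Opa1 and atlastins, which cut or fuse membranes, none passed in edgeR (0 by the unadjusted p at 0.05 as well). Their log2 fold changes lay between -0.18 (Opa1) and 0.19 (Atl2), with a median of 0.02. Dnm2, the ubiquitous dynamin, was at -0.01 (SE 0.07). Without the filter on low counts Dnm1 was called in numbers 1 to 4, at 0.51 (SE 0.14, edgeR adjusted p = 0.012). Dnm1l was called there too, at -0.41 (SE 0.13, edgeR adjusted p = 0.031). With the filter neither was called there (edgeR, adjusted p = 0.18 and 0.061). The effect on Dnm1 differed between the sets without the filter (edgeR interaction, adjusted p = 0.017) and not with it (0.44).

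Upstream of the GTPases the interferon genes themselves were near 0. Of 21 listed interferon genes 3 had a row. Ifnb1 had 0 UMIs without and 2 with azacitidine, Ifne 1 and 0, and Ifnz 13 and 19. A count of 0 allows up to 3 UMIs, or 0.11 CPM over the 16 libraries, by counting error alone. Of the 5 tested receptor genes 0 passed in edgeR, also 0 before adjustment at 0.05, and values ran from -0.16 (SE 0.08) for Ifnar1 to 0.13 (SE 0.15) for Ifnar2. By set, 1 was called: Ifnar2 in numbers 1 to 4, at 104 ± 31 CPM (SD, n = 4) without and 156 ± 27 CPM with azacitidine, rose there by 0.55 (SE 0.15, edgeR adjusted p = 0.019). A difference of its effect between the sets did not pass with the filter (edgeR, adjusted p = 0.089) and passed without it (0.00012).

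Among the 8 tested signalling genes described here 3 rose and 0 fell over all libraries (background 3.65% and 2%), with a median log2 fold change of 0.20. These were Irf7, an interferon-induced amplifier, at 1.49 (SE 0.24), Irf9 at 0.72 (SE 0.11) and Stat2 at 0.48 (SE 0.08), each with an edgeR adjusted p of at most 7.2e-05. Irf9 and Stat2 encode parts of the complex that binds the response element. Irf7, Irf9 and Stat2 also differed in effect between the sets (edgeR interaction, adjusted p at most 0.0064). The kinase gene Jak1 was at -0.17 (SE 0.06) and was not called over all libraries (edgeR, adjusted p = 0.063). By set, Jak1 was called as decreased in numbers 1 to 4, at -0.31 (SE 0.09, edgeR adjusted p = 0.033). Irf1 was at 0.18 (SE 0.12) over all libraries and not called (edgeR, adjusted p = 0.47). In numbers 1 to 4 Irf1 was called as increased, at 0.47 (SE 0.13, edgeR adjusted p = 0.015). Of 8 tested feedback genes 1 rose (background 3.65%), Usp18, which dampens the type I receptor, by 1.65 (SE 0.19, edgeR adjusted p = 8.7e-08), and Socs1 was at 0.10 (SE 0.09). The effect on Usp18 differed between the sets (edgeR interaction, adjusted p = 3.2e-07). It ran from 2.69 (SE 0.17) in numbers 1 to 4 to 0.71 (SE 0.16) in numbers 5 to 8, and was called in each set.

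The machinery that places the GTPases on membranes gave no call over all libraries. Of 11 genes of the ATG8 proteins and their conjugation, which direct GTPases to vacuoles, 0 passed in edgeR, also 0 before adjustment at 0.05, with values from -0.16 (Atg10) to 0.13 (Atg3). A further 8 genes act in prenyl and myristoyl transfer or in the processing of prenylated proteins, and some of the GTPases carry such lipid anchors. Of these 8 genes 0 passed in edgeR, and 2 did before adjustment at 0.05, the myristoyltransferases Nmt2 at 0.22 (SE 0.08) and Nmt1 at 0.14 (SE 0.06). By set, 3 genes of these lists were called: Atg3 rose by 0.48 (SE 0.14, edgeR adjusted p = 0.024) in numbers 1 to 4, and Nmt1 by 0.35 (SE 0.09, adjusted p = 0.0083) and Nmt2 by 0.52 (SE 0.15, adjusted p = 0.028) in numbers 5 to 8. Among 10 tested partners of GTPase-driven defence 3 rose (background 3.65%). Casp1, the inflammasome caspase, was at 1.48 ± 0.81 CPM without and 21.7 ± 7.5 CPM with azacitidine, and rose by 3.80 on the log2 scale (SE 0.22, edgeR adjusted p = 6.3e-16). Its groups did not overlap, and its effect did not pass the test of a difference between the sets (edgeR, adjusted p = 0.44). Trim21, an antibody receptor of the cytosol, rose by 0.66 (SE 0.12, edgeR adjusted p = 0.00034) and Lgals8, a sensor of broken vacuoles, by 0.25 (SE 0.07, edgeR adjusted p = 0.039), which was not called without the filter (adjusted p = 0.060). Casp4, the caspase that guanylate-binding proteins help to activate, was at 0.28 (SE 0.10) and was not called (edgeR, adjusted p = 0.080).

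**Figure D4:**
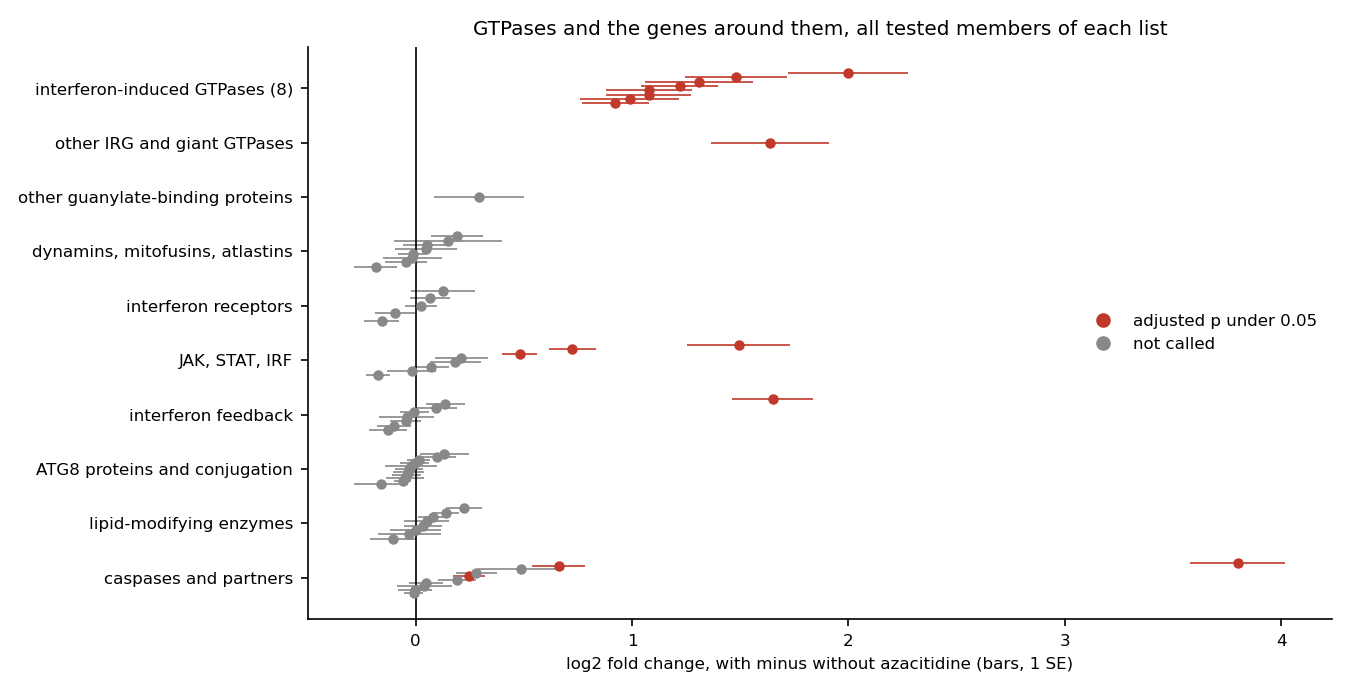
Log2 fold change with against without azacitidine (x axis) of every tested gene of 10 lists, with bars of 1 SE, red where the edgeR adjusted p is under 0.05. The 8 GTPases lie between 0.92 and 2.00, the dynamin relatives between -0.18 and 0.19, and the point at 3.80 is Casp1.

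The members varied together from library to library. After removal of the group means the 28 pairs of the 8 tested members had Pearson correlations of log2 CPM between 0.51 and 0.81 over the 32 libraries, with a median of 0.68. The medians were 0.51 over the 16 libraries without and 0.82 over the 16 with azacitidine. All pairs share the same libraries and their sets, so these are descriptions. Outside the members, the genes most like their mean were Ifit3 (r = 0.95), Ifit3b (0.92), Ifit1 (0.91), Lgals3bp (0.91) and Ifi35 (0.88), and those most like Irgm1 were Ifi35 (0.93), Ifit3 (0.92), Irf7 (0.91), Lgals3bp (0.90) and Rtp4 (0.90). Each of these 7 genes rose with azacitidine (background 3.65%). Only group means were removed, so a response that differs between the sets stays in these correlations. The effect differed between the sets for each of the 7 (edgeR interaction, adjusted p at most 2.8e-05, background 3.02%). Genes picked by this likeness share that response, so their rise is not a separate result.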

How the data were processed

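RNA of EL08-1D2 cells was made into barcoded, pooled libraries by a UMI method and a transposase kit, per the labels' protocols. Per the submitters' processing notes, the tools were STAR 2.4.0 and bedtools 2.17.0 and the build mm10; annotation, collapsing of identifiers and strand are not given in the sources used here. The deposited values are raw UMI counts per gene, with no normalization by the authors found. The table had 21897 lines. Its 68 ERCC spike-in lines (0.106% of UMIs) stayed out of library sizes and tests. Of 21829 mouse genes 21506 had a position in GENCODE M21 (mm10). Totals ran from 818619 to 5039721 UMIs per library, and low genes are therefore the least precise.

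Groups were compared with edgeR 4.0.16 (quasi-likelihood test, robust, TMM, default filter by group, two-sided, Benjamini-Hochberg over all 9344 genes kept, 98.8% of UMIs). CPM use TMM library sizes, and an SE is the log2 fold change over the root of its F value. Sets were fitted with 1 mean per set and group. DESeq2 1.42.0 and limma 3.58.1 (voom) were alternatives, with R 4.3.3, Python 3.11.15, numpy 2.4.6, pandas 2.3.3 and matplotlib 3.10.9. The tests were tried on simulated counts. Promoter sequences are from RefSeq (GRCm38.p6). Named genes are all members, the genes most like them and, per list, up to 4 tested genes with the lowest p. Others, such as those below the filter, were chosen after their values were seen. Members, lists, sets, motifs and tests were chosen with earlier results of these data known. Protein sequences were not used here. A signalling gene is not reported here.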

Additional observations from a re-analysis of the deposited data

Results flagged for a closer look

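The effect of azacitidine differed between the sets of 4 replicate numbers for 5 members, by the edgeR interaction test with Benjamini-Hochberg adjustment over 9344 genes. The adjusted p was 1.6e-07 for Irgm1, 7.9e-07 for Gbp3, 1.0e-06 for Gbp2, 5.0e-05 for Tgtp2 and 0.011 for Igtp. Without the filter on low counts 7 members passed, with Irgm2 at 0.00026 and Iigp1 at 0.039. For Irgm1, Gbp3, Gbp2, Tgtp2 and Igtp all 16 treated libraries exceeded the untreated median, and so they did for Mx2. The share of all genes that show this is not given here. The untreated median pools the sets, and within numbers 5 to 8 the groups overlapped for each of these genes. The labels do not say what the sets are, and what makes them differ was not tested.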

How the results depend on the processing

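The 8 tested members kept their direction under every alternative that could test them, and none was lost when single libraries were left out in turn (32 fits, added after the data were seen; 471 to 568 genes called, and 5 to 6 members with an effect that differed between sets). Replicate numbers paired 12 of 16 same-numbered libraries at a correlation above 0.1 (from -0.29 to 0.83), and 3 of 16 treated libraries were closest to their own number, so the numbers were not taken as pairs; with the replicate block 897 genes were called in place of 528, and 8 members. The number of called genes was 860 without the filter on low counts, 263 after thinning (6 members tested and called, Gbp7 and Iigp1 below the filter), 322 without numbers 13 to 16, 993 with the set as a term, and 108 with summed sets, where 0 members were called (4 with a set term). Spike-in scaling raised the median log2 fold change of all genes from 0.00075 to 0.31 and left 8 members called, from 1.25 to 2.25; its split was 354 higher of 355 calls, against 341 of 528. Without the filter 1 member was called within numbers 5 to 8, 2 within 9 to 12 and 8 within 13 to 16, against 0, 1 and 7 (0 to 1, 1 to 2 and 7 to 8 with single libraries left out, added after the data were seen). The share of all genes called within the sets without the filter is not given here, so the larger counts say nothing about the members alone. The interaction called 687 genes without the filter and 186 after thinning (main 282), 7 members without the filter (main 5), and 3 members without numbers 1 to 4. The sets without azacitidine differed in 7 members without the filter (main 3), where the share of all genes is not given here. They differed in 650 genes after thinning and 833 without the 5 libraries apart (main 1300).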
